A study of Mus musculus with 30 samples.

Results

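The potassium channel genes described here are those whose probes on the array carry a gene name starting with Kcn, other than Kcnj8 and Kcnj11, which were left out. They made up 93 genes read by 137 of the 55681 gene probes. Of these genes, 54 were well enough detected to be tested, among 23342 genes tested in all. Each of the 30 arrays read the RNA of 1 fast fibre, taken from a hindlimb muscle made mostly of such fibres (extensor digitorum longus) of male CD1 mice, aged 8 weeks when the virus was given. The study changed the level of MCU, the pore of the mitochondrial calcium uniporter, through which mitochondria take up calcium.

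MCU fibres came from muscles injected with an adeno-associated virus that overexpresses MCU, 3 fibres at 7 days and 4 fibres at 14 days after injection. They were set against wild type fibres that got no virus, 4 matched to each day, so that virus and MCU change together there. shMCU fibres came from muscles injected with a virus that silences MCU, 3 fibres at 7 days and 4 fibres at 14 days. They were set against the transfected control, called shLuc here, with 4 fibres at each day. The sample titles name its virus AAVshLuc while another label describes a virus without a cloned insert, and this was not settled. Fibres of injected muscles were picked for the green marker ZsGreen and, for MCU and shMCU, kept for a changed MCU level by PCR. MCU and wild type fibres of 1 day shared a slide, as did shMCU and shLuc fibres of 1 day. The shLuc and wild type fibres lay on different slides, scanned on different days, so virus and slide cannot be told apart in that comparison, and nor can day and slide. Which mouse gave which fibre is not labelled. The p-values thus cover fibre-to-fibre spread, and fibres may share a mouse.

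Potassium channels let potassium leave the cell and so set the resting potential of a muscle fibre and end each action potential. Voltage-gated channels open on depolarization, inward rectifiers and 2-pore leak channels hold the membrane near rest, and calcium-activated channels open when calcium in the cytosol rises. Potassium lost during activity gathers in the T-tubules and changes excitability, and potassium channels of muscle are known from studies of fatigue and of inherited paralysis and myotonia.

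The probes are 60-base oligonucleotides, and a result for a gene is a result for the stretch its probe reads. Those shown first lie in coding sequence (a reading frame of 19 and 20 codons without a stop) and show what such a stretch holds. The second Kcna7 probe, chr7:52664902-52664961 on the plus strand, spans the proline-valine-proline codons of the last transmembrane segment, the hinge of the gate in this family, in capitals. The Kcnip2 probe, chr19:45868494-45868553 on the minus strand, spans a calcium-binding EF-hand loop of the auxiliary subunit, in capitals.
Kcna7: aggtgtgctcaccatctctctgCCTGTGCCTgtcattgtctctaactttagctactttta
Kcnip2: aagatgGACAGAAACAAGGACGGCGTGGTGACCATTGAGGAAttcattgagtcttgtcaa
Genes on which silencing results turn are shown by the first 30 bases of their probes, all on the minus strand of mm9 and written as on the array.
The Kcnk9 probe, chr15:72342761-72342820, opens with 4 ATG repeats in a row, in capitals. Of the 55681 probes, 12 (0.022%) hold such a run.
Kcnk9: ATGATGATGATGtcgtcgataatgttgttg
The 3 Kcnma1 probes lie at chr14:24130916-24130975 (main), chr14:24118701-24118760 (second) and chr14:24126279-24126338 (the third). They are shown because they did not move the same way.
Kcnma1 main: tggtgatctgttctgcaaagctctgaaaac
Kcnma1 second: agattccttgatgcacatttctcttctttc
Kcnma1, the third: tgggtgggcagtcaatgtatacatgtaaat

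A level here is the log2 signal of a probe minus the array's 75th percentile, so 0 marks that percentile. Levels of different probes cannot be set against each other. A spot counts as detected where the scanner software called it well above background. A gene was tested where a probe was so detected on at least 3 arrays of 1 group, and its brightest such probe stands for it.

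Detection split the family. Of the 93 genes, 34 were detected on all 30 arrays, 36 on some and 23 on none. Of the member probes, 29.9% were detected on all arrays and 27.7% on none, against 39.6% and 23.9% of all probes. Of the 40 pore genes of voltage-gated channels, 18 were detected on every array. Among them were Kcna4, Kcna6, Kcna7, Kcnc1, Kcnc4, Kcnd1, Kcnd2, Kcnd3, Kcnf1, Kcng1, Kcng2, Kcng4, Kcnh3 and Kcnh4. The 10 detected on none were Kcna2, Kcnb2, Kcnc2, Kcng3, Kcnh1, Kcnh5, Kcnq3, Kcns2, Kcnv1 and Kcnv2. Among the 14 genes of 2-pore leak channels, Kcnk3, Kcnk4, Kcnk7, Kcnk9, Kcnk10, Kcnk12, Kcnk15 and Kcnk16 were detected on all arrays, and Kcnk1 and Kcnk6 on none. Kcnk5, a leak channel known from skeletal muscle, was detected on 1 array and not tested.

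Among the 13 inward rectifier genes, Kcnj12 and Kcnj9 were detected on all arrays, and Kcnj6, Kcnj10 and Kcnj16 on none. Of the 8 calcium- or sodium-activated genes, Kcnma1, the pore of the large-conductance BK channel, and Kcnt1, a sodium-activated channel, were detected on all arrays, while Kcnn1 and Kcnn2 were detected on none. Of the 16 auxiliary subunits, Kcnab1, Kcne1l, Kcnip2 and Kcnip3 were detected on all arrays, and Kcne1, Kcne2, Kcnip1, Kcnmb1, Kcnmb2 and Kcnmb3 on none. A probe that is not detected can be weak as well as dark, so these lists describe probes and not the absence of a channel.

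**Figure D1:**
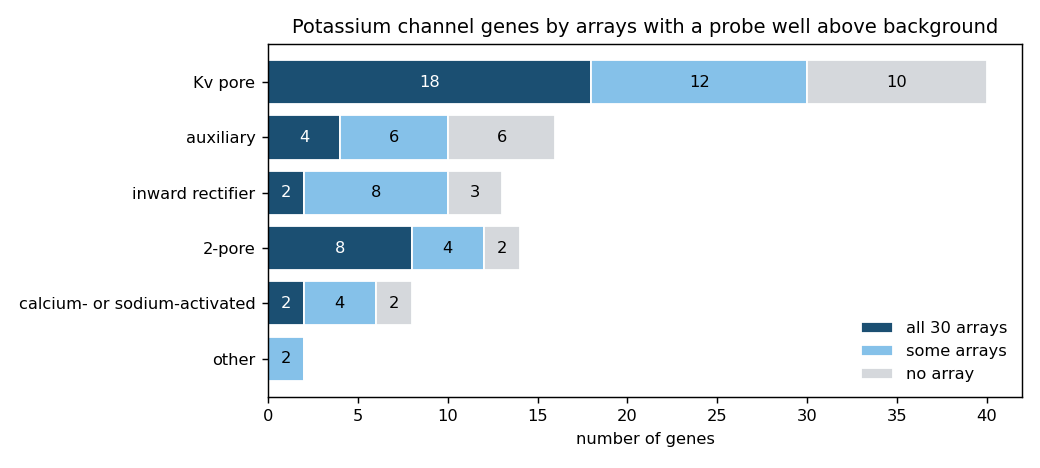
Number of potassium channel genes (horizontal axis) in each of 6 classes, stacked by whether the gene was well above background on all 30 arrays, on some or on none; Kv pore means the pore genes of voltage-gated channels. Of the 40 voltage-gated pores 18 were detected on all arrays and 10 on none, and of the 14 leak channels 8 and 2.

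Fibres of 1 group differed from each other by an amount that depended on the gene. The within-group standard deviation had a median of 0.36 over the tested members and 0.31 over all tested genes. Among members detected on all 30 arrays it was lowest for Kcna4, the pore of an A-type channel, at 0.12, and highest for Kcnc1, the pore of a fast delayed rectifier, at 0.85. Kcnc1 ran from 0.45 to 3.27 over single fibres, and its values spread that widely within groups: wild type fibres at day 14 had 3.11, 0.45, 2.18 and 1.83. A difference in Kcnc1 therefore had to be far larger than one in Kcna4 to pass the test.

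Fast fibre markers were present in every fibre. All 7 fast fibre markers were detected on all 30 arrays, as were 3 of 5 slow fibre markers. Markers of other cells were mixed: Pax7 of satellite cells was detected on 1 array, Cdh5 of endothelium on 2 and Pdgfra of fibroblasts on none, while Ptprc of leukocytes, Sox10 of Schwann cells and Plin1 of adipocytes were detected on all 30. The level of Mcu ran from -0.58 to 1.30 in shMCU fibres at day 7, against 2.30 to 3.04 in shLuc fibres over both days, and from -1.68 to 0.76 in shMCU fibres at day 14. It ran from 3.11 to 3.62 in MCU fibres at day 7 and from 5.88 to 6.68 at day 14, against 2.16 to 2.94 in wild type fibres.

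After silencing of MCU, 10 of the 54 tested members changed over both days against shLuc at an adjusted p under 0.05 in limma, which is 18.5% of them against 14.5% of all 23342 genes. Of the members 7 rose (8.56% of all genes did) and 3 fell (5.89% of all genes), so the shares lay near the background. Among the rises were the voltage-gated pore genes Kcnh4, Kcna6 and Kcng1, the inward rectifier Kcnj2, the leak channel Kcnk16 and the accessory subunit Kcnip2, and among the falls were Kcnma1 and the noncoding Kcnq1ot1. The members' median difference was 0.03 and that of all genes 0.05. The split by direction depended on the scaling: with arrays scaled to their median, 1 member rose and 6 fell, and with the percentile taken over always-detected probes, 8 rose and 2 fell. None of the rises named above passed with median scaling (limma adjusted p = 0.0563 for Kcnj2 to 0.264 for Kcnh4). Of all genes called, 59.2% were higher in the main scaling, 25.1% with median scaling and 74.5% with the percentile over detected probes. At day 7, 8 members were called against 13.8% of all genes, 4 of them higher (8.77% of all genes) and 4 lower (5.03%). At day 14 only Kcnk16 was called (3.52% of all genes), and in 2 members the effect differed between the days (4.13% of all genes). With median scaling the day 7 calls were 1 rise and 4 falls.

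The day 7 arrays of silenced fibres were dimmer before scaling. Their 75th percentile signal was 82.5 to 102.5 in shMCU fibres, against 106.6 to 128.3 in shLuc fibres, and the share of probes detected 49.4% to 53.0% against 50.9% to 55.4%. Summed levels of the fast fibre markers were 10.5 to 11.0 in shMCU fibres at day 7 and 10.2 to 10.5 in shLuc fibres, without overlap. The 2 Schwann cell markers tested of 4 summed to 0.73 to 1.37 in shMCU fibres, against -0.80 to 0.20 in shLuc fibres, with S100b detected on 1 of the 30 arrays. The 2 adipocyte markers summed to -1.05 to -0.68 in shMCU fibres, against -1.86 to -1.27 in shLuc fibres. The marker sums of slow fibres, satellite cells, endothelium, smooth muscle, fibroblasts, leukocytes and erythroid cells overlapped at day 7. For slow fibres the sum reached 5.40 in shLuc fibres, with a lowest value of 0.92, against 2.24 to 2.70 in shMCU fibres. No other group had a slow fibre sum above 2.70. The part of these differences in the day 7 results was not tested, beyond a fit that held each array's detected share as a covariate, which called 7 members at day 7.

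Kcna6, a delayed rectifier pore, had levels of 0.83, 0.97 and 1.10 in shMCU fibres at day 7, against 0.23, 0.27, 0.48 and 0.64 in shLuc fibres. The groups did not overlap (difference 0.56, limma adjusted p = 0.0495). Levels at day 14 were -0.01, 0.19, 0.16 and 1.13 in shMCU fibres and 0.27, 0.24, -0.12 and 0.20 in shLuc fibres, where 1 shMCU fibre stood above the rest. The rise over both days was 0.39 (limma adjusted p = 0.0430), and the second Kcna6 probe gave 0.50, which did not pass. The call over both days was lost in 8 of 15 fits without 1 fibre, with an adjusted p of up to 0.0991, and that at day 7 in 6 of 7.

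Kcng1 encodes a subunit that is silent alone and modifies other voltage-gated pores. It had -0.37, -0.64 and -0.70 in shMCU fibres at day 7, against -1.07, -1.28, -0.93 and -1.31 in shLuc fibres, without overlap (difference 0.58, limma adjusted p = 0.0322). At day 14 the groups overlapped, and the rise over both days was 0.37 (limma adjusted p = 0.0437). Leaving out 1 fibre ended that call in 12 of 15 fits and the day 7 call in 5 of 7.

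Kcnh4, a pore of the ether-a-go-go-like branch, had 1.09, 1.20 and 1.08 in shMCU fibres at day 7, against 0.62, 0.88, 0.56 and 1.02 in shLuc fibres. At day 14 it had 0.59, 0.34, 0.85 and 1.08 in shMCU fibres, against 0.40, 0.50, 0.42 and 0.36 in shLuc fibres. Only the day 7 groups stood apart, and the rise over both days was 0.32 (limma adjusted p = 0.0254). It no longer passed without shLuc fibre 1 or 3 or shMCU fibre 2 of day 7, at differences of 0.30, 0.29 and 0.31 (limma adjusted p = 0.0533, 0.0515 and 0.0556).

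Kcnd3, a pore of the transient A-type current, had -1.48, -1.31 and -0.88 in shMCU fibres at day 7, against -1.92, -1.67, -2.15 and -2.10 in shLuc fibres. The groups did not overlap, and the rise was 0.74 (limma adjusted p = 0.0484). The call was lost in 5 of 7 fits without 1 fibre. Kcnip2, a calcium-binding subunit that escorts these A-type pores to the membrane, had -0.54, -0.82 and -0.32 in shMCU fibres at day 7, against -1.53, -1.05, -1.71 and -0.96 in shLuc fibres. Its groups did not overlap either, with a difference of 0.75 that did not pass at day 7 (limma adjusted p = 0.0543) and a rise of 0.52 over both days (limma adjusted p = 0.0489). That call was lost in 10 of 15 fits without 1 fibre. Kcnd2, the sister pore, had 0.10, 0.27 and 0.36 in shMCU fibres at day 7, against -0.27, 0.34, -0.32 and 0.00 in shLuc fibres, and was not called.

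Kcna7, Kcnc4 and Kcnc1, pores known from skeletal muscle, were not called after silencing. Kcna7, a delayed rectifier pore, had 2.46, 1.48 and 2.17 in shMCU fibres at day 7, against 2.34, 2.12, 1.87 and 2.98 in shLuc fibres. Over both days it differed by -0.04, with a 95% interval of -0.44 to 0.37, and its second probe, the coding stretch printed above, by -0.31 (limma adjusted p = 0.113). Kcnc4, a rapidly inactivating pore known from fast fibres, differed by -0.59 (limma adjusted p = 0.121). Its lowest value, -0.90, came from shMCU fibre 3 at day 14, against 1.19, 1.62, 1.64 and 1.21 in shLuc fibres of that day. Kcne3, known to pair with Kcnc4 in muscle, differed by -0.21, and Kcnc1 by 0.36 with an interval of -0.51 to 1.22. Neither passed. Kcnq5, a slowly activating voltage-gated pore that is known from skeletal muscle, differed by 0.55 and did not pass (limma adjusted p = 0.238).

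Kcnab1 and Kcnab2 encode cytoplasmic beta subunits of voltage-gated channels. Kcnab1 averaged 2.18 ± 0.19 in shMCU fibres at day 7 (SD, n = 3), against 2.38 ± 0.18 in shLuc fibres (SD, n = 4), a difference that did not pass. Kcnab2 had -2.39, -1.56 and -1.01 in shMCU fibres at day 7, against -2.71, -2.70, -2.69 and -2.67 in shLuc fibres. The groups did not overlap, 2 of the shLuc fibres were not detected, and the difference of 1.04 missed the threshold (limma adjusted p = 0.0572).

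Kcnk9 encodes an acid-sensitive leak channel. Its levels were -0.12, -0.17 and -0.02 in shMCU fibres at day 7, against -1.19, -1.15, -1.14 and -0.96 in shLuc fibres. The groups stood apart by more than their own range, and the rise was 1.01 (SE 0.21, 2.01-fold, limma adjusted p = 0.00247). Its day 14 levels were -0.91, -1.12, -0.24 and -1.43 in shMCU fibres and -0.69, -0.86, -0.43 and -0.77 in shLuc fibres, with a difference of -0.24 that did not pass (limma adjusted p = 0.535). The effect differed between the days by -1.24 (SE 0.28, limma adjusted p = 0.0114), and over both days the difference of 0.38 did not pass. The day 7 rise passed under every alternative tried, and the day difference under all but a fit of only the groups compared (limma adjusted p = 0.0597). The gene has 1 kept probe, the one with the ATG run printed above, so no second probe was there to set beside it.

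Kcnk16, an alkaline-activated leak channel known from pancreatic islets, was the member called at day 14. It had 1.44, 1.20, 1.32 and 0.77 in shMCU fibres and 0.39, 0.55, 0.76 and 0.58 in shLuc fibres, without overlap (difference 0.61, SE 0.17, limma adjusted p = 0.0436). At day 7 the values were 0.69, 0.20 and 0.75 in shMCU fibres and 0.19, 0.44, 0.17 and 0.79 in shLuc fibres, which overlapped. The rise over both days was 0.38 (limma adjusted p = 0.0423). Leaving out 1 fibre ended the day 14 call in 6 of 8 fits and that over both days in 11 of 15.

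Kcnj2 encodes the inward rectifier that sets the resting potential of muscle, in which mutations in humans cause a periodic paralysis. Its levels at day 7 were -0.42, -0.90 and -1.24 in shMCU fibres, against -1.39, -2.06, -3.04 and -1.38 in shLuc fibres, the third of which was not detected. At day 14 they were -1.16, -0.77, -0.08 and -0.56 in shMCU fibres, against -2.11, -1.17, -1.40 and -1.11 in shLuc fibres. All shMCU fibres of day 7 lay above the shLuc fibres of that day, and 3 of 4 did at day 14. The rise over both days was 0.96 (SE 0.28, 1.94-fold, limma adjusted p = 0.0237). It fell short without shLuc fibre 3 of day 7 (0.78, limma adjusted p = 0.0515), shLuc fibre 1 of day 14 (0.85, limma adjusted p = 0.0521), shMCU fibre 1 of day 7 (0.85, limma adjusted p = 0.0631) or shMCU fibre 3 of day 14 (0.87, limma adjusted p = 0.0502). The rise also fell short with median scaling (0.83, limma adjusted p = 0.0563) and with array weights (0.83, limma adjusted p = 0.0727). Kcnj12, the other strong inward rectifier known from muscle, had 3.04, 2.80 and 2.49 in shMCU fibres at day 7, against 3.58, 3.34, 2.85 and 3.31 in shLuc fibres. It differed by -0.36 over both days and did not pass (limma adjusted p = 0.198).

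**Figure D2:**
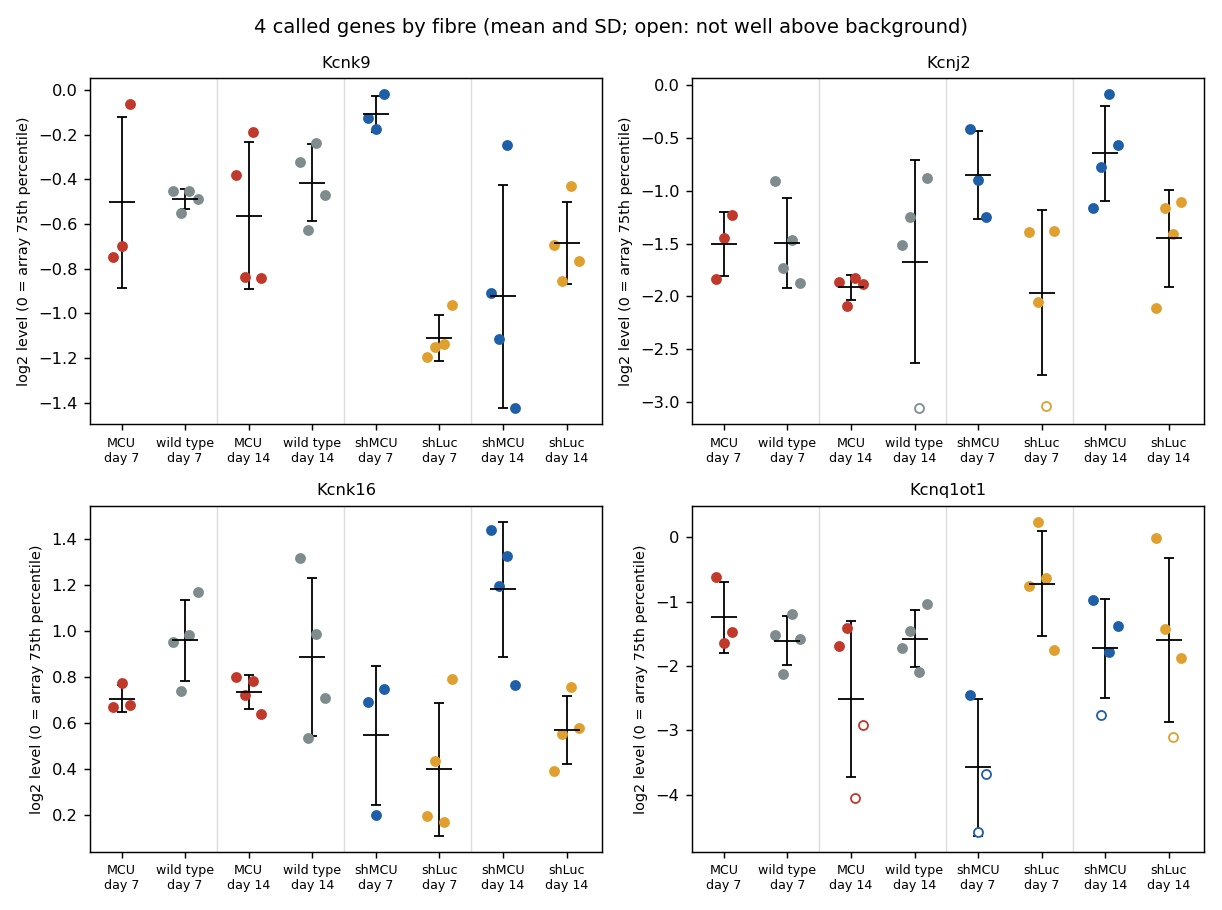
Levels of Kcnk9, Kcnj2, Kcnk16 and Kcnq1ot1 in single fibres of the 8 groups (vertical axes, log2 signal minus the array's 75th percentile); each point is 1 fibre, open points were not well above background, and bars are the mean and SD of a group. Kcnk9 separates shMCU from shLuc fibres at day 7 and not at day 14, and Kcnj2 separates them at day 7 and overlaps at day 14 by the shMCU fibre at -1.16.

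Kcnma1, the BK channel pore, opens on calcium and depolarization together. On its main probe the levels at day 7 were 1.37, 0.82 and 1.07 in shMCU fibres, against 2.03, 1.73, 1.35 and 2.12 in shLuc fibres. They overlapped by 1 fibre, and the fall was 0.72 in size (limma adjusted p = 0.0237). At day 14 the levels were 1.63, 1.40, 1.74 and 1.63 in shMCU fibres and 1.93, 1.87, 1.48 and 1.72 in shLuc fibres, with a difference of -0.15 that did not pass. Over both days the difference was -0.43 (limma adjusted p = 0.0412), and 10 of 15 fits without 1 fibre lost that call, with an adjusted p of up to 0.108. Day 7 alone lost it without shLuc fibre 1 or 4 or shMCU fibre 2 or 3, with an adjusted p of 0.0649 to 0.114.

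The other Kcnma1 probes disagreed with each other in direction, though both were detected on all 30 arrays. Disagreement was not particular to Kcnma1, and 14 members had several kept probes. After silencing, all kept probes of a gene had the same sign in 10 of these over both days. They did so in 9 at day 7 and in 6 at day 14. Results that rest on 1 probe are limited by this. The second averaged -1.28 ± 0.10 in shMCU fibres at day 7 (SD, n = 3), against -0.09 ± 0.30 in shLuc fibres (SD, n = 4). It fell by 1.19 at day 7 and by 0.92 over both days (limma adjusted p = 0.000508 and 0.000156 over all kept probes). The third averaged -0.84 ± 0.32 in shMCU fibres at day 7 (SD, n = 3), against -1.38 ± 0.30 in shLuc fibres (SD, n = 4). It rose by 0.55 at day 7 and by 0.52 over both days (limma adjusted p = 0.0207 and 0.00204 over all kept probes). The third probe was designed on another cDNA record than the first 2, and which Kcnma1 transcript each probe reads was not tested. The fall thus concerns the stretches of the main and second probes and not that of the third.

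**Figure D3:**
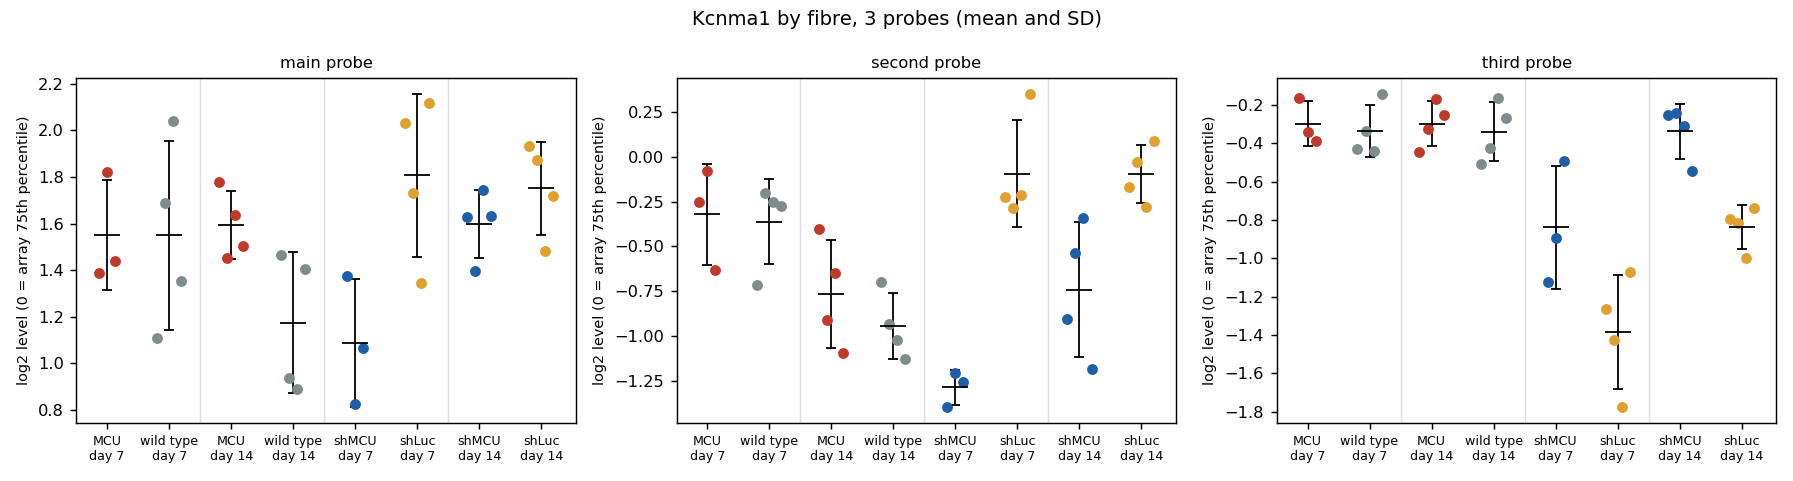
Levels of the 3 Kcnma1 probes in single fibres of the 8 groups (vertical axes, log2 signal minus the array's 75th percentile, each with its own range); each point is 1 fibre, and bars are the mean and SD of a group. At day 7 the second probe averaged -1.28 in shMCU fibres, against -0.09 in shLuc fibres, and the third -0.84 against -1.38.

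Kcnn3, a small-conductance calcium-activated channel known to reappear in denervated muscle, was not detected in any shMCU fibre at day 7, with values of -3.66, -3.27 and -2.71. The shLuc fibres had -2.46, -2.03, -0.47 and -1.62, all detected. The fall was at least 2.09-fold. Here "at least" sets an undetected spot to the lowest detected signal of its array, or to its own where that is higher. On the values as measured the fall passed (limma adjusted p = 0.0335), while the difference behind the 2.09-fold did not (limma adjusted p = 0.0884). At day 14 it was detected in every shMCU fibre, at -1.80, -1.08, -0.99 and -2.29, against -2.32, -2.62, -1.26 and -2.72 in shLuc fibres, 2 of which were not detected. The effect's difference between the days, 2.27, did not pass (limma adjusted p = 0.0525). The second Kcnn3 probe differed by -0.86 at day 7 and did not pass. With normexp background correction the main probe differed by -0.30, and with undetected spots at the lowest detected signal by -1.06, and neither passed (limma adjusted p = 0.195 and 0.0884). The day 7 call was lost without shLuc fibre 3 or 4 or shMCU fibre 1 or 2, with differences of -1.84 to -1.18 over all fits without 1 fibre and an adjusted p of up to 0.114.

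Kcnq1ot1 is no channel but a long noncoding RNA, transcribed antisense within the imprinted Kcnq1 gene. Its levels at day 7 were -2.46, -4.58 and -3.68 in shMCU fibres, the last 2 not detected, against -0.76, 0.24, -0.62 and -1.74 in shLuc fibres. The groups did not overlap, and the level fell by 2.85 (SE 0.63, limma adjusted p = 0.00447), or by 1.83 with undetected spots set to the lowest detected signal. At day 14 the difference was -0.12. The fall of 1.49 over both days (limma adjusted p = 0.0232) no longer passed without shLuc fibre 1 of day 14 (-1.22, limma adjusted p = 0.0527) or shMCU fibre 2 of day 7 (-1.24, limma adjusted p = 0.0729). A second probe, detected on 14 arrays, differed by -1.72 at day 7 and did not pass. The labelling kept no strand, so signal from Kcnq1ot1 and from Kcnq1 cannot be told apart at these probes.

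At day 7 the shMCU and shLuc fibres did not overlap for 17 members, against 21.9% of all genes. They were higher in shMCU fibres for 13 (14% of all genes) and lower for 4 (7.93%). Among the lower were Kcnn3, Kcnq1ot1 and Kcnn4, the last of which was detected in no shMCU fibre and 1 shLuc fibre of that day. At day 14 they did not overlap for 2 members, Kcnk16 and Kcne1l (difference -0.38, not passed), against 9.07% of all genes. The median difference was 0.11 over members and 0.09 over all genes at day 7, and -0.05 against -0.00 at day 14.

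After overexpression of MCU no member passed an adjusted p under 0.05 in limma. Over both days 0 of 54 were called, against 1.11% of all genes, and 7 had an unadjusted p under 0.05, against 13.1% of all genes. At day 7 the counts were 0 called (0.574% of all genes) and 2 unadjusted (5.34%), and at day 14 they were 0 called (0.42%) and 9 unadjusted (11.4%). For the difference of the effect between the days 0 were called (0.197% of all genes), and 4 had an unadjusted p under 0.05 (3.47%). With array weights 3 members passed over both days, among them Kcnh2 at -0.64, and 1 passed at day 14. The share of all genes that passed with array weights is not given here, so these counts have no background beside them. Kcnh2 was detected in 0 of 4 MCU fibres and 2 of 4 wild type fibres at day 14, so its value rests partly on undetected spots. MCU and wild type fibres did not overlap for 6 members at day 7, against 8.19% of all genes (among them Kcna6, Kcnc4 and Kcne1l). Kcnk13 was also among the 6 but was detected in none of these 7 fibres, and Kcnab3, higher in wild type, passed the detection filter only through the 4 wild type fibres of that day. At day 14 they did not overlap for 7, against 8.27% of all genes (among them Kcnc4, Kcnh8 and Kcnj14). Kcns1 was among the 7 too, but it passed the detection filter only through the MCU fibres of that day, detected in 4 of 4 against 0 of 4 wild type fibres.

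**Figure D4:**
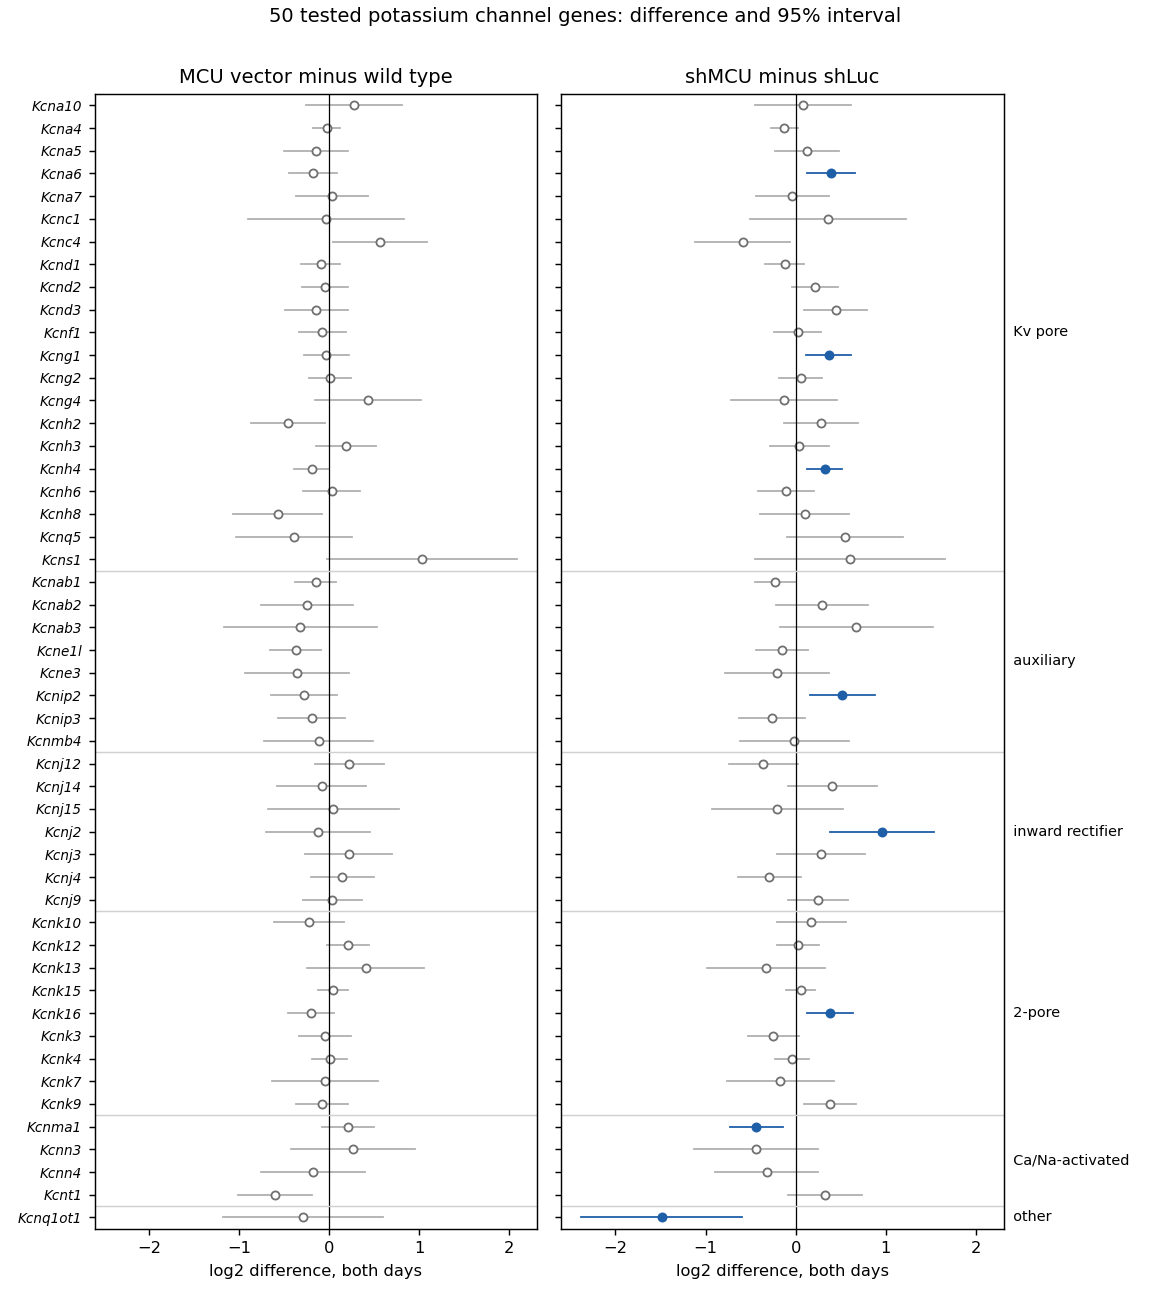
Log2 difference over both days of 50 tested potassium channel genes, MCU minus wild type on the left and shMCU minus shLuc on the right, with 95% intervals before adjustment; each point is 1 gene, grouped by class, and filled points passed the test. None passed on the left, and 8 did on the right, from -1.49 for Kcnq1ot1 to 0.96 for Kcnj2.

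Kcnc4, the rapidly inactivating pore of fast fibres, stood in both of these lists. It had 2.22, 2.13 and 1.69 in MCU fibres at day 7, against 0.98, 1.69, 1.44 and 1.45 in wild type fibres. At day 14 it had 1.55, 1.79, 1.61 and 1.76 in MCU fibres, against 1.45, 1.27, 0.78 and 1.19 in wild type fibres. The difference over both days was 0.57, with a 95% interval of 0.04 to 1.09 before adjustment, and did not pass (limma adjusted p = 0.336).

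Genes that stood out after silencing were set beside MCU overexpression. Kcnk9 differed by -0.08 over both days, with an interval of -0.37 to 0.21, and Kcnj2 by -0.12, with an interval of -0.70 to 0.45.

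Of the channels known from muscle, Kcna7 differed by 0.03 over both days in MCU fibres, with an interval of -0.37 to 0.43. Kcnj12 differed by 0.22 and Kcnab1 by -0.15. Kcnq5 had -3.07, -2.17, -3.63 and -3.06 in MCU fibres at day 14, of which only the second was detected, against -1.24, -2.12, -1.48 and -2.36 in wild type fibres. Its difference of -1.18 did not pass (limma adjusted p = 0.265).

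The transfected control was compared with wild type over both days to show the background of the silencing comparison, which shares the shLuc arrays. In shLuc fibres 17 of 54 members were called, against 28.1% of all genes, 4 of them higher (9.63% of all genes) and 13 lower (18.5%). By class, 6 voltage-gated pores, 3 inward rectifiers, 2 leak channels and 2 auxiliary subunits were lower. With median scaling 9 were higher and 8 lower, and with the percentile over detected probes 3 and 15. Of all genes called, 34.2% were higher, 66.9% with median scaling and 23.9% with the percentile over detected probes. Virus and slide cannot be told apart here. With each array's detected share as a covariate 8 members were called, and with undetected spots at the lowest detected signal 15 were. The Schwann cell markers summed to -0.80 to 0.20 in shLuc fibres at day 7, against 1.20 to 1.63 in wild type fibres, without overlap, and the other marker sums overlapped on each day, as the Schwann sum did at day 14. The slow fibre marker Myl3 was detected in 1 of 8 shLuc fibres and 8 of 8 wild type fibres, and the adipocyte marker Adipoq in 1 of 8 and 7 of 8. The part of these markers in the calls was not tested.

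The A-type pores Kcnd3 and Kcnd2 were lower in shLuc fibres. Others did not pass, Kcnd1 at 0.04 and Kcna4 at 0.07, though Kcna4 passed with median scaling at 0.24. Kcnd3 ran from -2.15 to -1.55 in the 8 shLuc fibres, against -1.35 to -0.70 in the 8 wild type fibres, without overlap (difference -0.92, limma adjusted p = 0.000168). Kcnd2 differed by -0.63 (limma adjusted p = 0.000294) and Kcnip2 by -0.59. Kcnj14, an inward rectifier, differed by -1.12 (limma adjusted p = 0.000687), with 4 of the 8 shLuc fibres not detected. On the other side, Kcng2, a modifier subunit, ran from -0.30 to 0.24 in shLuc fibres and from -1.12 to -0.31 in wild type fibres (difference 0.48, limma adjusted p = 0.00186), and Kcnk7, a 2-pore member, rose by 0.98 (limma adjusted p = 0.00922). Kcnma1 rose by 0.42 on its main probe, a call lost without any of 6 single fibres with an adjusted p of up to 0.0639, and by 0.56 on the second, and fell by 0.77 on the third. Other calls included differences of -0.57 for Kcnj9 and -0.75 for Kcnj4, both inward rectifiers. Kcnj4 was detected in 1 of 4 shLuc fibres at day 7 and 3 of 4 at day 14. In wild type fibres it was detected in 4 of 4 and 3 of 4. Kcnk13, a 2-pore member, and Kcnab3, a beta subunit, also passed, but with undetected spots set to the lowest detected signal neither did, and no size is given. Kcnk13 was detected in 4 of 8 shLuc fibres and 3 of 8 wild type fibres. Kcnab3 was detected in 0 of 8 shLuc fibres and 4 of 8 wild type fibres, and the 4, all of day 7, were what let it pass the detection filter.

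The silencing comparison and this one share the shLuc arrays, so a low value in those arrays enters both with opposite sign. For the members that rose after silencing, the values of shLuc minus wild type included -0.60 for Kcna6, -0.45 for Kcnk9, -0.42 for Kcng1, -0.44 for Kcnk16, -0.30 for Kcnh4 and -0.59 for Kcnip2, all of which passed, -0.92 for Kcnd3 as given, and -0.12 for Kcnj2, which did not pass. With median scaling Kcnk9 (-0.27), Kcng1 (-0.25), Kcnk16 (-0.27) and Kcnh4 (-0.13) no longer passed (limma adjusted p = 0.0886 to 0.387). With the detected share as a covariate Kcnk9, Kcnk16, Kcnh4 and Kcnip2 (-0.37) did not (limma adjusted p = 0.0929 to 0.246), and with normexp Kcnk9 and Kcng1 did not, at -0.19 and -0.16. Kcnk9 at day 7 had -0.45, -0.55, -0.45 and -0.49 in wild type fibres, between its values in shMCU and in shLuc fibres of that day.

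A list of 23 genes that work beside potassium channels (sodium pump, chloride and sodium channels, potassium-chloride cotransporters and accessory subunits) had 20 tested members. After MCU overexpression 0 passed over both days in limma (1.11% of all genes), and 2 had an unadjusted p under 0.05 (13.1% of all genes). After silencing 1 passed the adjusted test over both days (14.5% of all genes) and fell: Lrrc38, a gamma subunit of the BK channel that eases its opening. Its levels at day 14 were 2.90, 3.51, 2.58 and 3.43 in shMCU fibres, against 3.57, 4.23, 3.82 and 4.11 in shLuc fibres, without overlap (difference -0.83, limma adjusted p = 0.0309). Over both days it differed by -0.54 (SE 0.16, limma adjusted p = 0.0237). Between shLuc and wild type fibres 3 passed (28.1% of all genes). The cotransporter gene Slc12a4 rose by 1.17, and Dpp6, a partner of the A-type pores, fell by 0.41. Lrrc55, another BK gamma subunit, was lower in shLuc fibres, where it was detected in 0 of 8 fibres, against 4 of 8 wild type fibres, so no size is given.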

How the data were processed

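The fibres were hybridised singly to 1-colour Agilent arrays (RNA amplified for 18 cycles, random-primed Cy3 label, per the labels' protocols). Per the file headers, Agilent Feature Extraction 10.7.3.1 made the deposited intensity values, background-subtracted within each array, with probe positions on mm9. The authors also deposited a table of intensity values on a linear scale (column medians 20.9 to 21.0), whose normalization is not given in the sources used here and which served as an alternative. Its columns correlated with their own arrays at 0.998 or more.

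From the deposited processed intensity, log2 was taken and each array's 75th percentile over non-control spots subtracted. Outlier-flagged spots were dropped and spots of a probe averaged. Probes were named by accession through RefSeq (26425 of 55681), by symbol or synonym, and otherwise by the files. Of all probes, 33164 were kept, detected on at least 3 arrays of 1 group. limma 3.58.1 (R 4.3.3) was fitted to 8 group means over all 30 arrays, 1 probe a gene, with Benjamini-Hochberg adjustment over 23342 genes at 0.05, after a test on simulated data. The number of arrays limits the precision, and no member spot was saturated.

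The members, classes and lists were chosen with earlier results of these data known. Genes named were, per comparison, the called members with the smallest p (up to 8 in each direction over both days, up to 3 elsewhere), a list of members known from muscle, and members on all or no arrays. Other members named for a small count were chosen after their values were seen. Some members that the counts include are not reported here. Same-numbered fibres did not deviate together (correlations of -0.18 to 0.19, over 0.1 in 4 of 14 pairs) and were not paired. Within groups, arrays correlated at 0.951 to 0.984, and none were duplicates. Alternatives were background correction, scaling, quantile normalization, the filter on dim probes, array weights, covariates and blocks, the groups in the fit and leaving out each fibre. Promoter sequences were not used, since no value here bears on them.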

Additional observations from a re-analysis of the deposited data

Results flagged for a closer look

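The effect of MCU silencing on Kcnk9 differed between the days by a test of the difference itself, by -1.24 on the log2 scale, day 14 minus day 7 (limma adjusted p = 0.0114). The day 7 and day 14 fibres lay on different slides, so day and slide cannot be told apart.

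Single fibres stood apart from the other 3 of their group in 5 of 130 groups of 4 fibres, where chance gives about 1 in 20. Kcna6 was low in shLuc fibre 3 at day 14, at -0.12, with the next at 0.20. Kcnc1 was high in MCU fibre 2 at day 14, at 2.20, with the next at 1.63. Kcnd2 was low in shMCU fibre 4 at day 14, at -0.29, with the next at 0.21, and high in wild type fibre 3 at day 14, at 1.02, with the next at 0.67. Kcnj14 was low in MCU fibre 2 at day 14, at -2.48, with the next at -2.05.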

How the results depend on the processing

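Which potassium channel genes were called after silencing depended on the fit. Among the called genes whose direction was followed under the alternatives, none changed direction. Kcnj9, Kcnj4, Kcnk13 and Kcnab3, called in shLuc against wild type, were not among those followed. Of the calls over both days, 10 in number, 3 were left with array weights, 4 with slide as a block and 1 (Kcnj2) with a fit of only the groups compared. At day 7 the 8 calls became 14 with normexp background correction, 5 with median scaling, 5 with array weights and 3, among them Kcnk9 and Kcnq1ot1, with only the groups compared. Of the 14 with normexp, 6 were among the 8 of the main fit and the rest were other members. At day 14 the 1 call became 0 with median scaling, without a filter on dim probes, with array weights, with each array's detected share as a covariate and with only the groups compared. It became 2 with the percentile over detected probes and 2 when every kept probe was tested. The 2 day differences became 4 with normexp, 4 with the replicate number as a block and 1 with only the groups compared. After MCU overexpression array weights gave 3 calls over both days and 1 at day 14 in place of 0. Between shLuc and wild type fibres the covariate gave 8 in place of 17. Without 1 fibre, silencing gave 4 to 14 calls over both days, 3 to 8 at day 7, 0 to 1 at day 14 and 2 to 5 day differences, MCU overexpression gave 0 throughout, and shLuc against wild type gave 15 to 18.

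With the replicate number as a block, which the fibres did not bear out, silencing gave 7 calls over both days, 7 at day 7 and 1 at day 14, MCU overexpression 0 and shLuc against wild type 17. That day 14 call was another gene than Kcnk16, which did not pass there (0.61, limma adjusted p = 0.0504). Median scaling moved the median difference of all genes by -0.13 over both days, -0.14 at day 7 and -0.13 at day 14 of silencing, and by 0.17 in shLuc against wild type. Under it 37.9% of all called genes were higher at day 7, against 63.5% in the main scaling, and 22.4% at day 14, against 46.5%. With the percentile over detected probes these shares were 72.6% and 64.4%. For MCU overexpression over both days the share was 73.8%, 87.2% with median scaling, 63.7% with the percentile over detected probes and 57.8% with normexp. Setting undetected spots to the lowest detected signal, an alternative chosen after seeing the data, ended the call of Kcnq1ot1 over both days (-1.02, limma adjusted p = 0.0573). Low signal limits Kcnn3, Kcnab2, Kcnq5, Kcnq1ot1, Kcnh2, Kcnj4 and Kcnj14, among others, which were undetected on some arrays.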
